A study of Mus musculus with 4 samples.

Results

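The genes described here set the brake and the start of the cell cycle: 6 inhibitors of cyclin-dependent kinases (Cdkn1a, Cdkn1b, Cdkn1c, Cdkn2a, Cdkn2b and Cdkn2c), the 3 D cyclins (Ccnd1, Ccnd2 and Ccnd3) and Trp53. They were chosen by name, as the rows of the authors' deposited table whose gene column equals one of these symbols. All 10 had exactly 1 row of the 24216 in the table, and the authors tested all 10. RNA was sequenced from dental pulp cells of XLacZ4 mice, in 2 molar and 2 incisor libraries. All 4 libraries carry the XLacZ4 reporter, a transgene that makes the bacterial enzyme beta-galactosidase in the mural cells of vessels (pericytes and vascular smooth muscle cells), and cells positive for its substrate FDG were sorted. No treatment is named in the labels, and the sources used here do not give ages, sexes or the number of animals. The table holds 1 combined value per tissue, so it carries no SD and no n, the depth is unknown, and sorting or sequencing effects cannot be told apart from tissue effects.

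D cyclins are made in response to growth signals, bind the kinases CDK4 and CDK6, and start the phosphorylation of the retinoblastoma protein that frees E2F factors to switch on S-phase genes. INK4 inhibitors (encoded by Cdkn2a, Cdkn2b and Cdkn2c) bind CDK4 and CDK6 and keep D cyclins out, while CIP/KIP inhibitors (encoded by Cdkn1a, Cdkn1b and Cdkn1c) bind whole cyclin-kinase complexes, above all those of CDK2. Trp53 encodes p53, a transcription factor that is controlled mostly through the stability of its protein and that switches on Cdkn1a after damage. The mouse incisor grows throughout life from stem cells at its base, whereas the molar stops growing once its roots are formed.

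Promoters of the 2 called genes with a sequence in RefSeq (build GRCm38.p6) are shown because each has a pair of annotated starts within the interval of its single deposited row. Each line gives the 250 bases before a start, 5′ to 3′ along the gene's strand. Capitals mark GC boxes (GGGCGG, the binding motif of Sp1 factors), CCAAT boxes (CCAAT) and the p53 full site, all searched on both strands. All 4 stretches lie on the plus strand of chromosome 17, at chr17:29090729-29090978 and chr17:29093519-29093768 for Cdkn1a and at chr17:47504801-47505050 and chr17:47593217-47593466 for Ccnd3.

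Cdkn1a, upstream start: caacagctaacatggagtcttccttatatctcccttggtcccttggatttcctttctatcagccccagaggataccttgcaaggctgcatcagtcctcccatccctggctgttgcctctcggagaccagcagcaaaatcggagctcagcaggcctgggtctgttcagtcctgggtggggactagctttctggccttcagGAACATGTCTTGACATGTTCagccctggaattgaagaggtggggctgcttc

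Cdkn1a, downstream start: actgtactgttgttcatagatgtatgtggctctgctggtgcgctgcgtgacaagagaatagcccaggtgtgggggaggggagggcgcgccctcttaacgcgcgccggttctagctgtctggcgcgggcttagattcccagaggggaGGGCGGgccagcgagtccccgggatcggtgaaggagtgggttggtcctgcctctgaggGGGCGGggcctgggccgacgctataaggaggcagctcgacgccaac

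Ccnd3, upstream start: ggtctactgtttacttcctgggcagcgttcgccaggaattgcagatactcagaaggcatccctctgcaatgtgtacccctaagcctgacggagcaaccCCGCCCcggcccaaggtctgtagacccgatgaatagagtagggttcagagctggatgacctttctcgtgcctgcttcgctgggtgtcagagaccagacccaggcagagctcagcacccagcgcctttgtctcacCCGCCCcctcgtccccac

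Ccnd3, downstream start: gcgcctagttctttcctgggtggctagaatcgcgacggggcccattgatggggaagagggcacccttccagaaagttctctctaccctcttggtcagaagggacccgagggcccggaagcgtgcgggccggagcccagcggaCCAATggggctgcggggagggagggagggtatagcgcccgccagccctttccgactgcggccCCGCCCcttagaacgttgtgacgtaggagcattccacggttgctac

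Both Cdkn1a starts lie inside the row's interval, which opens at the upstream start itself (chromosome 17, 29090979 to 29100722, mm10). Before the upstream start stands a p53 full site, 2 p53 half-sites in a row with no spacer and at most 1 mismatch, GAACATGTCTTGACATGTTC, which begins 51 bases upstream. This site was found in 22 of 32851 RefSeq windows of 300 bases around a start (0.067%), and a single half-site in 8.36%. The downstream Cdkn1a start has no such site and instead has 2 GC boxes, a motif held by 35.7% of windows. Its 300-base window has 64.7% G and C and 23 CpG, against 54.7% and 2 at the upstream start. Both Ccnd3 windows hold 2 GC boxes, and the downstream one also has a CCAAT box, found in 37.4% of windows. In all, 7 of the 10 genes had at least 1 window, 11 windows together, and the full site was found in 1 of these 11. A gene-level FPKM cannot show which start was used.

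The 3 CIP/KIP inhibitors had a summed level of 84.3 FPKM in incisor and 241 in molar. Cdkn1a encodes p21, the inhibitor that p53 and many stress signals induce, and it stood at 30.2 FPKM (fragments scaled by transcript length and by library size) in incisor and 94.6 in molar. That is 3.13-fold higher in molar, a log2 fold change of 1.65, with q = 0.00176 in the authors' deposited table. The exons of Cdkn1a overlap those of AC167363.2 on the other strand over 7.68% of their bases. Cdkn1c encodes p57, an imprinted inhibitor known for cells that leave the cycle as they differentiate (chromosome 7, 143458339 to 143461050). It stood at 49.8 FPKM in incisor and 136 in molar, 2.73-fold higher in molar with q = 0.0183 in the authors' deposited table. The exons of Cdkn1c overlap those of the antisense gene Gm44732 over 30.6% of their bases, and whether the counting used strand is not given, so its value is uncertain. Cdkn1b encodes p27, which holds resting cells out of S phase (chromosome 6, 134920401 to 134925525), and stood at 4.22 FPKM in incisor and 10.1 in molar. Its 2.41-fold difference was not called, with q = 0.0680 in the authors' deposited table. All 3 members had their higher value in molar, and the pair that was called was also the more abundant pair in both tissues.

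Among the D cyclins only Ccnd3 was called. Ccnd3, the D cyclin best known from blood cells and from differentiating muscle, stood at 13.6 FPKM in incisor and 45.9 in molar. That is 3.37-fold higher in molar, a log2 fold change of 1.75, with q = 0.00799 in the authors' deposited table. The row's interval (chromosome 17, 47505051 to 47611492) runs on over the neighbouring gene Bysl, which has its own row at 3.06 FPKM in incisor and 2.48 in molar, and the exons of Ccnd3 overlap those of Bysl over 4.11% of their bases. The row of Ccnd2 (chromosome 6, 127125709 to 127212419) also runs on past the annotated gene (127125162 to 127152193). Ccnd2, an early target of growth factor and hormone signals, had the highest level of the 3 in both tissues. It stood at 84.6 FPKM in incisor and 80.4 in molar. It was the only one of the 10 genes with the lower value in molar and had no call (q = 0.809 in the authors' deposited table). Ccnd1, the D cyclin that Wnt and Ras signals are known to induce (chromosome 7, 144929931 to 144939925), stood at 29.3 FPKM in incisor and 34.1 in molar, without a call (q = 0.535 in the authors' deposited table). Its exons overlap those of LTO1 on the other strand over 23.4% of their bases, so its value is uncertain.

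The INK4 genes were not called, and 2 of them were near the floor of the data. Cdkn2c encodes p18 (chromosome 4, 109660876 to 109666756) and was the only INK4 member well above that floor, at 12.9 FPKM in incisor and 20.4 in molar with q = 0.273 in the authors' deposited table. Cdkn2b, which encodes the TGF-beta-induced inhibitor p15, stood at 0.295 FPKM in incisor and 1.32 in molar, with q = 0.352 in the authors' deposited table. The interval of its row (chromosome 4, 89295180 to 89518621) runs beyond the annotated gene (89306299 to 89311039) and is shared with the row of Gm12610. Cdkn2a, whose row merges the transcripts of p16 and of the p53 activator ARF from separate first exons (chromosome 4, 89274473 to 89294619), was listed at 0 in incisor and at 0.477 FPKM in molar, with q = 0.252 in the authors' deposited table. Genes for olfactory, vomeronasal and taste receptors, chosen after the values were seen as genes not expected in pulp, reached a 99th percentile of 0.146 FPKM in incisor and 3.77 in molar. The molar values of Cdkn2a and Cdkn2b lie within that range, and a listed 0 does not show that Cdkn2a was absent from incisor.

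Trp53 was the most abundant of the 10 genes in both tissues (chromosome 11, 69580359 to 69591873). It stood at 205 FPKM in incisor and 246 in molar, which placed it at percentiles 97.8 and 96.9 of the tested genes, and it had no call (q = 0.462 in the authors' deposited table). Of the 32-base words in its transcripts, 9.74% also occur in other genes, mainly in the pseudogene Trp53-ps. The order of levels in incisor was Trp53, Ccnd2, Cdkn1c, Cdkn1a, Ccnd1, Ccnd3, Cdkn2c, Cdkn1b, Cdkn2b and Cdkn2a. In molar Cdkn1c and Cdkn1a stood above Ccnd2, and Ccnd3 stood above Ccnd1. With no spread between libraries in the table, neighbours in these orders cannot be said to differ.

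**Figure D1:**
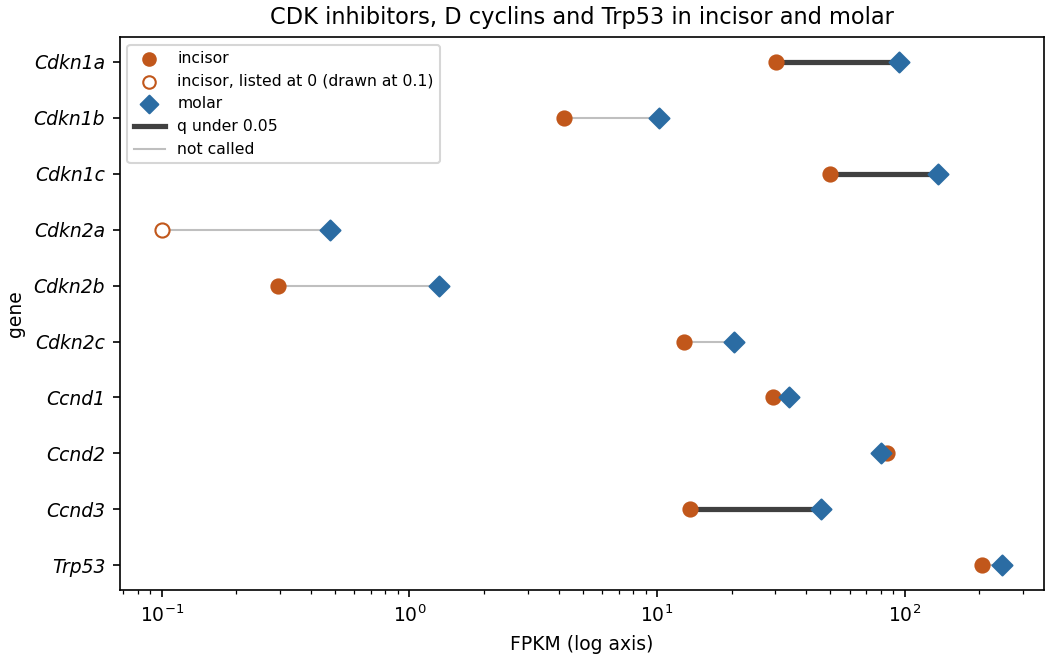
FPKM of each of the 10 genes in incisor (circles) and molar (diamonds) on a log axis, with dark lines for genes at q under 0.05 in the authors' deposited table. Cdkn1a, Cdkn1c and Ccnd3 are joined by dark lines with the molar value to the right, Ccnd1, Ccnd2 and Trp53 have nearly coinciding symbols, and Cdkn2a and Cdkn2b lie at the low end.

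In all, the authors' test called 3 of the 10 genes higher in molar and 0 in incisor at q under 0.05, and 7 had no call. At an unadjusted p under 0.05 in the authors' deposited table the counts were 4 and 0, with Cdkn1b as the added gene. The share of all tested genes at that unadjusted threshold was not computed, here or for the lists below, so those counts have no background. Over all 18770 tested genes, the share called at q under 0.05 was 11.9% toward molar and 4.28% toward incisor. The members' count is a description, and no test of the 10 genes as a set was made. Molar FPKM was the higher value for 9 of the 10 genes and for 61.3% of all tested genes. The median log2((molar FPKM + 1) / (incisor FPKM + 1)), a scale that understates the difference of low genes, was 0.73 over all 10 genes and 0.21 over all tested genes. The molar FPKM values of the whole table sum to 815089 against 539574 in incisor (log2 ratio 0.60), so the scale between the tissues is itself uncertain. With equal FPKM totals the 3 called genes still had higher molar values, at log2 ratios of 1.03 for Cdkn1a, 0.84 for Cdkn1c and 1.11 for Ccnd3. On that scale Ccnd1 (-0.36) and Trp53 (-0.33) joined Ccnd2 (-0.66) on the incisor side.

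Composition within a family does not depend on the scale between tissues. Of the summed D cyclin FPKM, Ccnd3 made up 10.7% in incisor and 28.6% in molar, Ccnd2 66.3% and 50.1%, and Ccnd1 23.0% and 21.3%. The D cyclin sum itself was 128 FPKM in incisor and 160 in molar. The make-up of the CIP/KIP sum was similar in the 2 tissues, with Cdkn1c at 59.1% and 56.5% and Cdkn1a at 35.9% and 39.3%. Summed D cyclins thus stood at 1.51 times summed CIP/KIP inhibitors in incisor and at 0.667 times in molar. Cdkn2c made up 97.8% of the INK4 sum of Cdkn2a, Cdkn2b and Cdkn2c in incisor and 91.9% in molar. Cdkn2d, the remaining INK4 gene, stood at 18.2 FPKM in incisor and 81.6 in molar and was called higher in molar (q = 0.000664 in the authors' deposited table), and counted with the others it made up 58.0% of the INK4 sum in incisor and 78.6% in molar. These ratios carry no error and were not tested. The genes also differ in transcript length, with 2113 bases for Ccnd3, 3740 for Ccnd1 and 6330 for Ccnd2. Cdkn1a (2080) and Cdkn1c (1901) are likewise shorter than Ccnd1 and Ccnd2, and within the INK4 sum Cdkn2d (1423) is shorter than Cdkn2c (2471). Length moved with the difference between tissues, as given below, and its part in these shares and ratios was not tested.

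**Figure D2:**
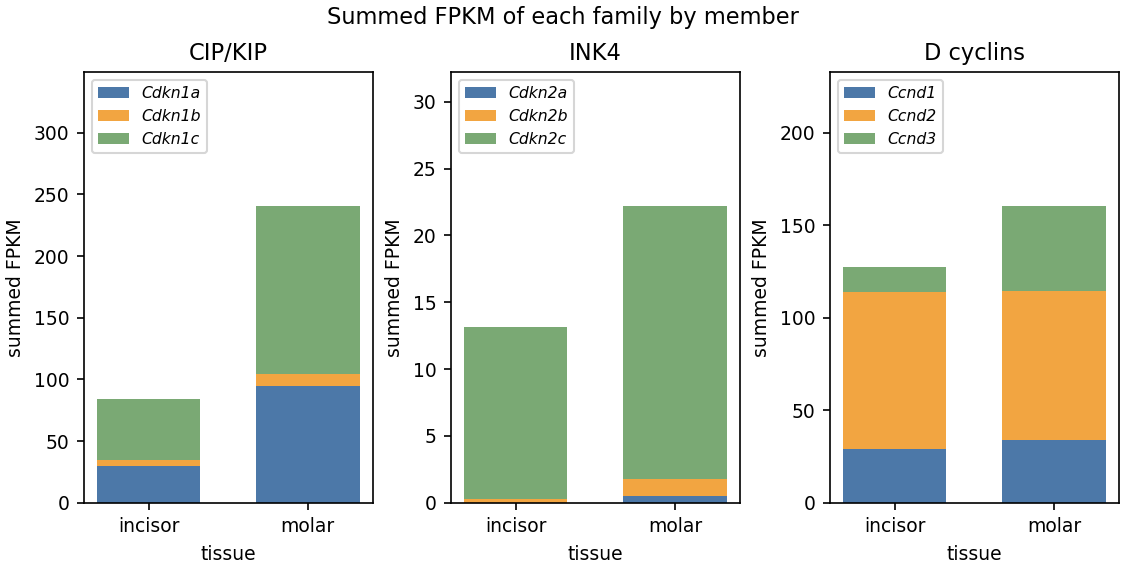
Summed FPKM of the CIP/KIP, INK4 and D cyclin families in incisor and molar, each bar divided by gene, with a separate axis from 0 for each family. The CIP/KIP bar reaches 84.3 in incisor and 241 in molar, and in the D cyclin bars the Ccnd3 section is 10.7% in incisor and 28.6% in molar, with Ccnd2 the tallest section in both.

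Transcript length moved with the difference between tissues. Across 12087 tested genes at 1 FPKM or more in either tissue with a length in GENCODE M21, divided into 5 equal classes by length, the median log2 ratio was 0.95 in the shortest class (longest coding transcript up to 1723 bases), 0.43 in the second and -0.25 in the longest. The share of genes called higher in molar was 32.0% in the shortest length class, 22.1% in the second and 6.95% in the longest. Cdkn1a (2080 bases), Cdkn1c (1901) and Ccnd3 (2113) all lie in the second class, so the nearer background for their calls is 22.1%. Relative to the median of genes of like length, a comparison chosen after seeing the data, their log2 ratios were 1.19, 1.00 and 1.25. Cdkn1b, at 4552 bases in the fourth class (median -0.23), had 1.32 on that scale, above all 3 called genes. Ccnd1 stood at 0.44, Cdkn2c at 0.20 and Ccnd2 at 0.17, while Trp53 (-0.16), Cdkn2b (-0.11) and Cdkn2a (-0.39) lay below the median of their class. The pseudocount of 1 FPKM held down the ratios of Cdkn2a and Cdkn2b, which were 2.53 and 1.85 with a pseudocount of 0.1. The class medians came from genes at 1 FPKM or more, which Cdkn2a did not reach. The place of Cdkn2a and Cdkn2b below the median therefore cannot be read as a difference from genes of like length. The part of length in the deposited differences was not tested.

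**Figure D3:**
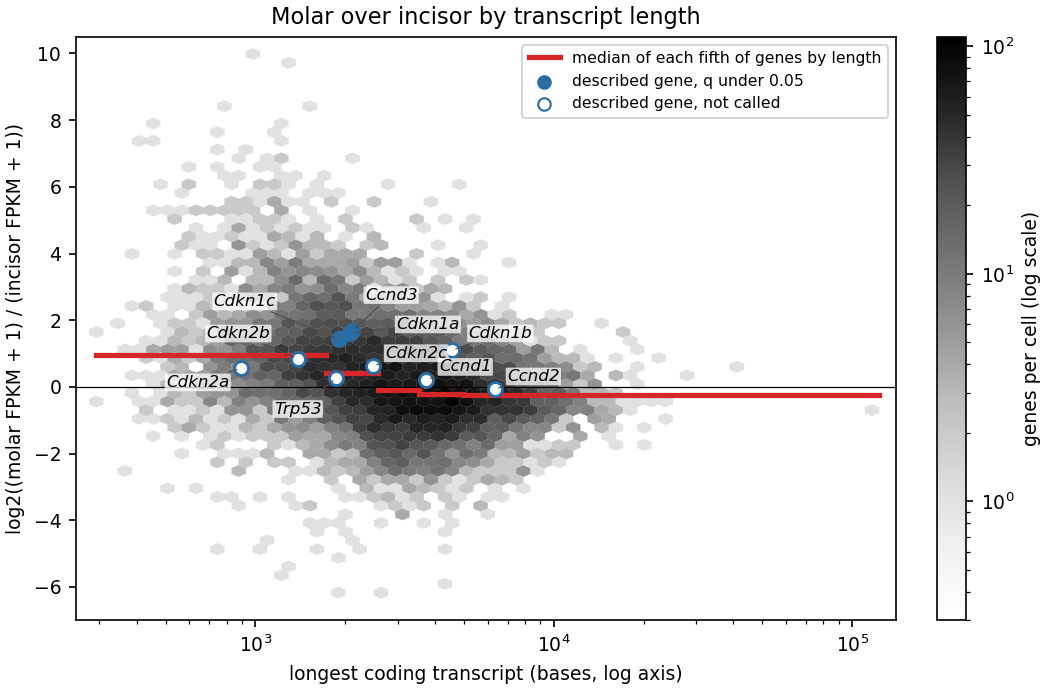
Longest coding transcript in bases (log axis) against log2((molar FPKM + 1) / (incisor FPKM + 1)), with grey cells for genes at 1 FPKM or more in either tissue, red lines for the median of each of the 5 length classes, and the 10 genes as circles, filled where called. The red line steps down from 0.95 to -0.25 with length, and Cdkn1a, Cdkn1c, Ccnd3 and Cdkn1b lie above the line of their class.

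The kinases and cyclins that act with and after the D cyclins had no call for 15 of 18 genes, with 2 called toward molar and 1 toward incisor and a list median of -0.72 against 0.14 over all tested genes at 1 FPKM or more. Cdk4, the main D cyclin partner, stood at 318 FPKM in incisor and 659 in molar, without a call (q = 0.0837 in the authors' deposited table), and 19.3% of its words occur in other genes, mainly Tspan31. Its relative Cdk6 was called higher in incisor, at 12.8 against 3.40 FPKM in molar (q = 0.00718 in the authors' deposited table). Ccnh, a subunit of the CDK-activating kinase (50.6 in molar against 2.87 in incisor), and the mitotic cyclin Ccnb2 (74.0 against 13.0) were called higher in molar. Among retinoblastoma-family, E2F and DREAM complex genes, 16 of 18 were not called, with Lin37 higher in molar (60.8 against 2.69) and the E2F partner Tfdp1 higher in incisor (30.4 against 8.50, uncertain since 21.4% of its words occur in other genes), and the median was -0.64. The list named other CDK inhibitors also holds genes of CDK-associated proteins, such as Cdk2ap2. In it the INK4 gene Cdkn2d and Cdk2ap2 were called higher in molar, 2 of 5, with a median of 0.31 that was -0.26 with equal FPKM totals. Of the genes that break down the inhibitors and D cyclins, 16 of 19 were not called, and the median was 0.08 but -0.46 with equal FPKM totals. Skp2, which marks p27 and p21 for breakdown, was called higher in incisor (19.8 FPKM against 2.00 in molar, q = 0.00634 in the authors' deposited table), and so was Gsk3b, the kinase that marks cyclin D1 for export and breakdown (25.6 against 3.70). Cks2 was called higher in molar (112 against 48.4), though 31.6% of its words occur in other genes and its value is uncertain. The longest coding transcripts of the genes named here as higher in molar ran from 692 bases (Cks2) to 2045 (Ccnh). Those of the genes higher in incisor ran from 2511 (Tfdp1) to 11525 (Cdk6), and the part of length was not tested.

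Proliferation markers lay toward incisor, with 10 of 24 called toward incisor, 2 toward molar and a median of -0.96. At q under 0.01 these counts were 5 and 0. The uncalled markers with the highest mean FPKM differed in side: Birc5 (185 FPKM in incisor and 109 in molar), Pcna (108 and 187) and Gmnn (43.2 and 58.5). The replication genes Mcm3 (70.2 FPKM in incisor and 14.0 in molar), Mcm5 (44.1 and 7.88) and Rrm1 (58.4 and 8.55) and the checkpoint gene Bub1b were among those higher in incisor, and Plk1 and Cdca8 were higher in molar. Their transcript lengths differ, at 3031 bases for Mcm3, 3381 for Mcm5, 3997 for Rrm1 and 3668 for Bub1b. Plk1 (2199) and Cdca8 (1626) are shorter, and so are Aurka (1905) and Tk1 (1440), which were called higher in incisor. The part of length was not tested. Most called markers had the opposite direction to Cdkn1a, Cdkn1c and Ccnd3. No test of a relation between them is possible with 1 value per tissue.

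Genes around Trp53 were described in the same way. Of 19 p53 regulators, 4 were called toward molar and 0 toward incisor by the authors' test (5 and 1 at an unadjusted p under 0.05), and the median was -0.18. Mdm2, the ubiquitin ligase that removes p53 and is itself a p53 target, stood at 11.7 FPKM in incisor and 7.22 in molar, without a call (q = 0.252 in the authors' deposited table). The called regulators were the ribosomal proteins Rpl5 and Rpl11, which bind Mdm2 (358 against 8.54 and 2943 against 435 FPKM), the ubiquitin ligase Rchy1 (33.8 against 4.02) and the p53 kinase Hipk2 (3.61 against 0.613). Rpl5 shares 50.3% of its words with other genes and is uncertain, and Hipk2 lies within the molar range of the receptor genes above. Of 33 p53 target genes other than Cdkn1a, 6 were called toward molar, 1 toward incisor and 26 in neither direction. Bax, which opens mitochondria in cell death (282 FPKM in molar against 44.3 in incisor), Gdf15 (40.9 against 4.02), Sertad1 (278 against 6.83) and Ddit4 (10.1 against 0.363) were higher in molar, and Perp, a junction protein of epithelia, was higher in incisor (38.8 against 9.44). Apart from Hipk2 (7684 bases), these regulators and targets called higher in molar had lengths from 833 bases (Rpl11) to 2045 (Rpl5). Perp has 1952, and the part of length was not tested. The target list's median was 0.39, and -0.10 with equal FPKM totals, so its side depends on the scale. The 10 tested genes that hold the p53 full site in a RefSeq window included Cdkn1a, called higher in molar, Mthfd1, called higher in incisor (12.9 against 2.96), and 8 that were not called, among them the p53 targets Ccng1 (5.24 in incisor and 3.35 in molar) and Rps27l (146 and 323).

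Upstream regulators of these genes were called in both directions. Of 21 Polycomb genes and other regulators of the Cdkn2 locus, the authors' test called 5 toward molar and 0 toward incisor (8 and 0 at an unadjusted p under 0.05), with a median of 0.73. They included Id1 (548 FPKM in molar against 3.70 in incisor) and Id3 (5285 against 119), which restrain Cdkn2a and Cdkn1a in other cells, the Polycomb gene Cbx8 (21.1 against 2.05) and the demethylase Kdm6b (5.48 against 0.719). Of 23 growth signal genes upstream of D cyclins, Jun (92.9 against 10.2), Fos (1008 against 194) and Mapk3 (118 against 42.0) were called higher in molar and Braf (9.75 in incisor against 1.58) and Nras (52.1 against 18.4) higher in incisor. Myc, which represses Cdkn1a and drives Ccnd2, stood at 48.6 FPKM in incisor and 19.1 in molar, without a call (q = 0.0606 in the authors' deposited table). Of 13 tested TGF-beta, Smad and Krüppel-like regulators, Klf6, an activator of Cdkn1a (422 against 34.3), and Klf4 (37.6 against 12.3) were called higher in molar and the ligand Tgfb3 higher in incisor (74.3 against 30.5). The lengths of the named upstream genes called higher in molar ran from 1160 bases (Id1) to 6654 (Kdm6b). Those called higher in incisor ran from 3383 (Tgfb3) to 9728 (Braf), and the part of length was not tested.

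**Figure D4:**
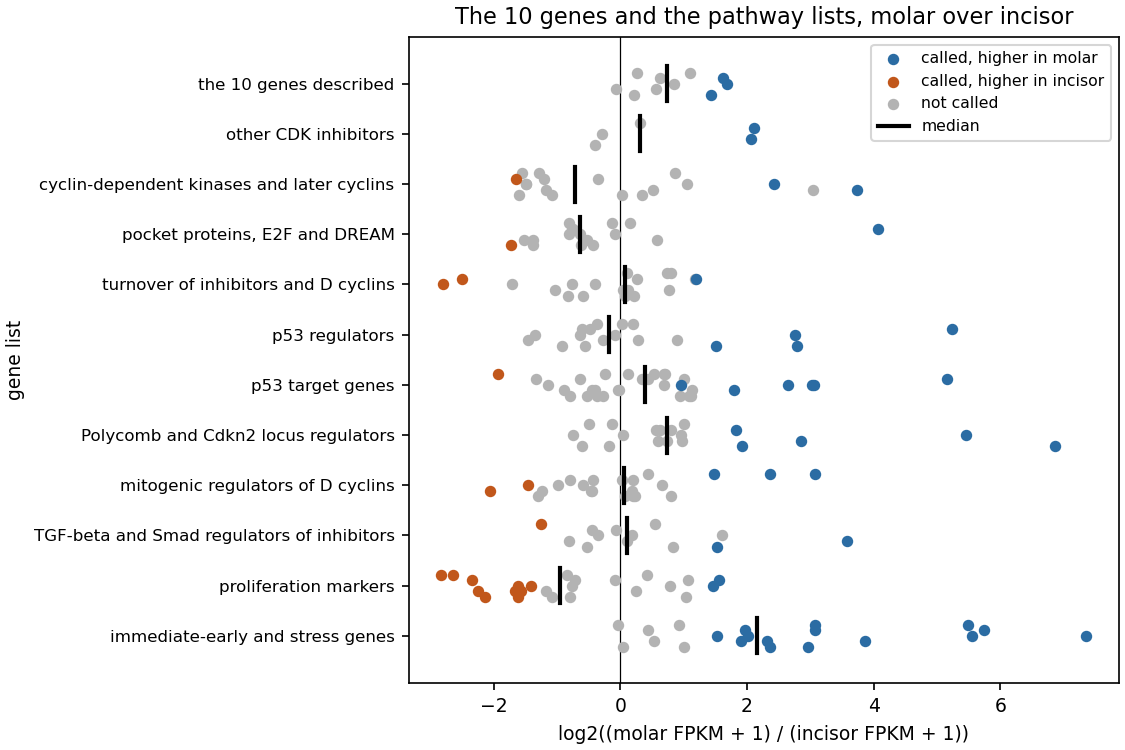
Log2((molar FPKM + 1) / (incisor FPKM + 1)) of each tested gene in the lists, at 1 FPKM or more in either tissue except that all 10 described genes are drawn, coloured by call, with a black bar for the list median. The 10 genes have their median at 0.73, the kinase, E2F and proliferation lists have theirs below 0, and the immediate-early list has 2.17.

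Markers of several cell types and of handling moved with the tissues, and since these are bulk samples, fewer cells of a type and less RNA per cell cannot be told apart. Mural markers were present in both tissues, with a summed level of 1234 FPKM in incisor and 1243 in molar over 15 genes, none at 0, and 3 called in each direction. The near-equal sums combine genes that differed in opposite directions. Cox4i2, which was not called, stood at 385 FPKM in incisor and 762 in molar. Ndufa4l2 (4.35 FPKM in incisor and 145 in molar), Kcnj8 (15.98 and 108) and Des (0.155 and 3.17) were called higher in molar. Des lies within the molar range of the receptor genes above. Rgs5 (537 and 127), Pdgfrb (30.3 and 12.6) and Tagln (153 and 12.4) were called higher in incisor. Tagln has 62.0% of its words in other genes and is uncertain. The median log2 ratio of the mural list was -0.33, and -0.84 with equal FPKM totals. Endothelial markers were called higher in molar for 14 of 15 genes, with sums of 22.7 and 331 FPKM and Cldn5 and Robo4 listed at 0 in incisor. Macrophage markers summed to 6941 FPKM in incisor and 11753 in molar, with 6 of 15 called toward molar and 2 toward incisor. Dental epithelial markers went the other way, 10 of 15 called higher in incisor with sums of 23578 and 2653 FPKM. Immediate-early and stress genes were called higher in molar for 14 of 20 genes, with sums of 868 and 7846 FPKM and none at 0. The part of these cells and of the stress genes in the values of Cdkn1a, Cdkn1c and Ccnd3 was not tested.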

How the data were processed

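Bulk RNA-seq of FDG-positive dental pulp cells was deposited as a single table, in which the authors had combined 2 libraries per tissue into 1 FPKM value for incisor and 1 for molar. Per the file headers, the table also holds a log2 fold change (equal to log2 of molar over incisor without a pseudocount), a signed test score, and the p-value and q-value of the authors' own test. Per the submitters' processing notes, reads were handled on build mm10 with software that included HISAT2, Trim Galore and edgeR, with no role stated for any of them. What made the table, its annotation, library scaling and use of strand: not given in the sources used here. Tissues were tied to columns by the description label. How the test used the 2 libraries of a tissue is not given either. Nothing in the labels says that the libraries came from separate animals, so the q-values cannot be taken to measure a spread between animals.

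Genes are named "called" where the deposited q lies under 0.05 and the status column marks the row as tested (18770 rows). The Benjamini-Hochberg adjustment recomputed from the deposited p-values gave the deposited q-values. The largest q the authors marked as significant was 0.0600. Scripts used Python 3.11.15, pandas 2.3.3 and numpy 2.4.6. Where a symbol was repeated, its row of highest mean FPKM was used, and 231 rows that join several genes were left out of lists. List medians used a pseudocount of 1 FPKM and tested genes at 1 FPKM or more in either tissue. Of the 10 described genes, 9 passed that minimum and Cdkn2a did not. Start positions were moved by 1 base to be 1-based. Lengths, exon overlaps and shared 32-base words came from GENCODE M21, and promoters from RefSeq GRCm38.p6. For the p53 full site the C and G of each half-site core were required and at most 1 other base could differ. The adjustment and the log2 ratios were tested on simulated data. The genes, the 20 lists and the tests were chosen with earlier results of these data known. From pathway lists, up to 4 called genes per direction with the largest log2 fold and up to 3 uncalled genes with the highest mean FPKM were picked. From cell type lists, up to 3 called genes per direction with the highest FPKM in either tissue were picked. Not every picked gene is named, and some genes, among them Cox4i2, Aurka and Tk1, were named outside these rules.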

Additional observations from a re-analysis of the deposited data

How the results depend on the processing

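Of the 3 called genes, Cdkn1a and Ccnd3 were also called at q under 0.01, and Cdkn1c was not. At q under 0.10 Cdkn1b was called higher in molar as well, which makes 4. Of all 18770 tested genes, 2730 were called higher in molar at that threshold. The authors' own mark of significance, the adjustment over genes at 1 FPKM or more, and a minimum of 1 FPKM beside the q each left the same 3 genes called, and the adjustment over genes at 1 FPKM or more put Cdkn1b at q = 0.0505. Over all genes, the count called higher in incisor fell from 804 to 426 at q under 0.01. A change of pseudocount cannot turn the side of a gene, nor can summing the rows of a symbol that has 1 row. Centring on the median of all genes, centring on the length class and equal FPKM totals could have. None of these turned the side of Cdkn1a, Cdkn1c or Ccnd3, whose log2 ratios were lowest with equal FPKM totals. Cdkn2a depended most on the pseudocount, at 2.53 with 0.1 and 0.13 with 5. Of the 20 list medians, 6 changed sign in at least 1 setting: other CDK inhibitors, turnover genes, p53 family, p53 targets, growth signal genes and TGF-beta regulators. The causes were not tested. No paired analysis was possible because the table holds 1 value per tissue, and leaving out a library could not be run for the same reason. Depth is unknown, so no limit from counts can be given for the listed 0 of Cdkn2a.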

Other observations

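Several rows whose names refer to the described genes were not in any comparison above, or were noticed after the values were seen. Cdkn2aipnl, a relative of the gene for a protein that binds ARF, stood at 8.51 FPKM in incisor and 28.6 in molar and was called higher in molar (q = 0.00422 in the authors' deposited table). Cdkn2aip itself was not called, at 1.72 and 3.13 FPKM. Ccndbp1, whose protein binds cyclin D1, stood at 34.3 FPKM in incisor and 71.8 in molar, without a call (q = 0.0875 in the authors' deposited table). Trp53i13 was called higher in molar (11.5 against 1.33 FPKM, q = 0.0215 in the authors' deposited table). Trp53cor1, the long noncoding RNA gene upstream of Cdkn1a (chromosome 17, 29057474 to 29079126), stood at 0.608 FPKM in incisor and 0.813 in molar, without a call (q = 0.563 in the authors' deposited table), while Cdkn1a was 3.13-fold higher in molar. The row 9330179D12Rik, antisense to Ccnd2 and sharing its interval, stood at 0.983 FPKM in incisor and 3.39 in molar, without a call.

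Genes of the secretory pattern described for senescent cells, a list that overlaps the inflammatory genes, were called higher in molar for 10 of 18 and higher in incisor for 3, with a median log2 ratio of 2.12. Il6 (23.7 FPKM in molar against 1.20 in incisor), Cxcl1 (4283 against 30.4) and the urokinase receptor Plaur (135 against 2.79) were higher in molar, and Mmp13 (375 in incisor against 4.37) and Igfbp3 (33.0 against 8.05) higher in incisor, by the authors' deposited table. Lmnb1, whose loss marks senescent cells, stood at 2.20 FPKM in incisor and 2.06 in molar, and Cdkn2a, the other common marker, was not called. Trp63, the p53 relative of basal epithelium, stood at 11.1 FPKM in incisor and 1.30 in molar, without a call (q = 0.120 in the authors' deposited table).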
